A study of Mus musculus with 6 samples.

Results

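The genes that move calcium in heart muscle were followed across 6 mouse hearts, each measured on 1 Affymetrix Mouse Gene 1.0 ST array. The 10 genes were chosen by name: Atp2a2, Pln, Ryr2, Casq2, Trdn, Jph2, Cacna1c, Cacnb2, Slc8a1 and Camk2d. All 10 of them were found among the 19938 genes with a probe set annotated to that symbol alone, on 30 of the 35557 probe sets. Trdn had 19 probe sets, Slc8a1 and Jph2 had 2 each and the other genes 1 each. The mice were 6 months old (postnatal day 180), and the series asked what loss of Id1 and Id3 in vessels does to the adult heart. The Id cKO heart carried Tie2Cre, 1 floxed and 1 null Id1 allele and no intact Id3 (Tie2Cre+Id1F/-Id3-/-). A second Id cKO heart was treated with recombinant mouse IGFBP3, and another served as its untreated control. Id control 1 had 1 floxed and 1 wild-type Id1 allele, no intact Id3 and no Cre in its label (Id1F/+Id3-/-). Id control 2 carried Tie2Cre, no intact Id1 and 1 intact Id3 allele (Tie2Cre+Id1-/-Id3+/-). The last heart was wild type (WT). Tie2Cre is a transgene active in endothelial and blood cells, whereas the null Id alleles are present in every cell. The labels give Id cKO, Id control 1, Id control 2 and WT different genotypes, so these came from different animals. They do not say whether the treated and untreated Id cKO hearts did. The spread behind p-values that use this pair may thus be in part technical. In comparisons with Id control the spread is that between the Id control arrays alone, which differ in genotype and date code.

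With each beat, calcium enters the muscle cell through L-type channels at the T-tubule and makes ryanodine receptors in the facing sarcoplasmic reticulum release much more. The muscle relaxes when the pump SERCA2 returns calcium to the reticulum and the sodium-calcium exchanger carries it out of the cell. Phospholamban holds the pump back until it is phosphorylated. In failing hearts SERCA2 is often found reduced.

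The deposited values are log2 expression levels. The incubated pair (IGFBP3-treated and untreated Id cKO) lay on a lower scale, with array medians of 4.45 and 4.51, against 5.73 to 5.83 on the other 4 arrays. These sets were compared with each other only after quantile normalization, which gives every array the same distribution. The labels carry 3 date codes, 1 shared by Id cKO, Id control 2 and WT, 1 for Id control 1 and 1 for the incubated pair. The targeted genes followed the labels within the first 4 arrays, with Id1 at 6.48 in Id cKO, 8.10 and 6.41 in Id controls 1 and 2 and 8.14 in WT, and Id3 at 4.69, 5.02 and 7.32, and 7.18 in the same order. The female-specific RNA Xist was high in Id cKO (8.62) and the Id controls (8.61 and 8.15) and low in the incubated pair (at most 3.08) and WT (4.03). The Y-linked gene Eif2s3y went the other way, at 2.95 in Id cKO, 2.73 and 3.03 in the Id controls, 7.07 treated, 6.20 untreated and 7.98 in WT. By both genes WT was the only male heart of the first 4 arrays, so each difference from WT there is also one of sex. The part of sex in the results was not tested. Heart muscle markers were present on every array, all 15 of them above a log2 level of 6 on at least 1 array. Their mean level was 12.9 in Id cKO, 13.0 and 12.9 in the Id controls and 12.9 in WT. Id control 2 also held atrial muscle, with a mean of 10.5 over 10 atrial markers, against 8.12 in Id cKO, 7.99 in Id control 1 and 7.88 in WT.

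For 8 of the 10 genes RefSeq promoters of build GRCm38.p6 were at hand, in 12 windows. Id proteins keep E proteins off the E-box, CANNTG, a motif that reads the same on both strands. It stood before a start of 7 of the 8 genes, in 11 of the 12 windows of 250 bases, and in 66.2% of 32851 such windows of all genes. Windows of 1 gene can overlap, as those of Jph2 do. No window was at hand for Atp2a2 and Trdn. The windows of Pln (chr10:53337436-53337685, + strand), Ryr2 (chr13:12106946-12107195, - strand) and Casq2 (chr3:102086165-102086414, + strand) are shown as examples, with E-box letters in capitals.
Pln: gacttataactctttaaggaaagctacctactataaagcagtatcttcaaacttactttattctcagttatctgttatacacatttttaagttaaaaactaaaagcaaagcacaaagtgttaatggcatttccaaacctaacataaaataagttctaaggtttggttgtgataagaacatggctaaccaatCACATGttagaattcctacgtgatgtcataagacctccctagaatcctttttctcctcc
Ryr2: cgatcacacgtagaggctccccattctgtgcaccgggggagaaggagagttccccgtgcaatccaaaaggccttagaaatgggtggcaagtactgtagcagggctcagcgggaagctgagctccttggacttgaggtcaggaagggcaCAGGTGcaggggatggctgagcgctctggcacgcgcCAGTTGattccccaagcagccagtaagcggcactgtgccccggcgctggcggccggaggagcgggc
Casq2: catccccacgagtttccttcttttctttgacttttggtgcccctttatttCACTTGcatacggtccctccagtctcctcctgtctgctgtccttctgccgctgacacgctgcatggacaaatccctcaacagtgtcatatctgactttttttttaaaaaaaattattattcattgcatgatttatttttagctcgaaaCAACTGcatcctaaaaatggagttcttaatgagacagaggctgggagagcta
Pln held 1 E-box, Ryr2 and Casq2 2 each and the Camk2d window 0. A match describes letters and is no evidence of binding.

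Between the Id cKO heart and WT the calcium genes hardly differed on the probe set with the highest mean of each gene. On these, none of the 9 genes at a level of 6 or more was 1.5-fold apart, where 10.3% of 11478 compared genes were. None was 2-fold apart (3.17% of genes). Some other probe sets differed more, with Slc8a1 0.60 above WT on its other one and 2 of 19 Trdn probe sets at least 1.5-fold higher. Cacnb2 stayed below 6 on every array and was not compared. The median difference over all 10 genes was -0.03, with a range from -0.28 to 0.27, and the median over all compared genes was 0.00449. Each comparison with WT rests on 1 WT array, so no p-value is given for 1 array against 1. In whole tissue, fewer muscle cells and less RNA per muscle cell cannot be told apart.

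The calcium pump and its brake were among 5 of the 10 genes that were lowest in Id cKO of these 4 hearts, as were 31.1% of 11708 genes. Atp2a2 encodes SERCA2, and its log2 level was 13.58 in Id cKO, 13.88 and 13.91 in the Id controls and 13.79 in WT. Id cKO thus lay below all 3 other hearts, by 0.21 from WT and by 0.31 ± 0.14 (limma SE) from the Id control mean. Pln encodes phospholamban and was at 13.35 in Id cKO, 13.66 and 13.55 in the Id controls and 13.50 in WT. Here too the Id cKO heart was the lowest of the 4. Its difference from Id control was -0.25 ± 0.14. Neither passed the limma test between Id cKO and Id control (adjusted p = 0.426 for Atp2a2 and 0.522 for Pln), and the 95% interval for Atp2a2 ran from -0.69 to 0.06.

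Against the Id control mean, the genes of the release machinery differed less than these on the probe set with the highest mean of each gene. Ryr2, the calcium release channel, was at 12.17 in Id cKO, 12.46 and 12.17 in Id controls 1 and 2 and 12.22 in WT, so that Id cKO and Id control 2 nearly coincided. Casq2 encodes calsequestrin, which stores calcium inside the reticulum, and had the narrowest range of the 9 compared genes, with 11.83 in Id cKO, 11.76 and 11.81 in the Id controls and 11.75 in WT. Trdn encodes triadin, which ties calsequestrin to the release channel. The probe set with its highest mean was at 10.39 in Id cKO, 10.40 and 10.40 in the Id controls and 10.68 in WT, so that WT stood alone above the other 3. Most other Trdn probe sets did not share this order, since Id cKO exceeded WT on 16 of 19, with a median difference of 0.25 over all 19. With the mean of its probe sets Trdn lay 0.36 above the Id control mean, further from it than Atp2a2 or Pln.

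At the junction of T-tubule and reticulum, Jph2 (junctophilin 2, which holds both membranes together) was at 10.26 in Id cKO, 10.41 and 10.60 in the Id controls and 10.11 in WT. WT was the lowest of the 4, and Id cKO lay between it and the Id controls. The other Jph2 probe set was at 9.93 in Id cKO, 9.90 and 9.90 in the Id controls and 9.82 in WT, so that Id cKO was highest there. Cacna1c, the pore of the L-type channel, was at 10.02 in Id cKO, 10.32 and 10.04 in the Id controls and 10.14 in WT. Id cKO was the lowest of the 4, though by as little as 0.025 from Id control 2, and WT lay between the Id controls. Its accessory subunit Cacnb2 was at 5.95 in Id cKO, 5.86 and 5.90 in the Id controls and 5.96 in WT.

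The exchanger and the kinase were among 4 of the 10 genes that were lowest in WT, as were 31.7% of all genes. Slc8a1 encodes the sodium-calcium exchanger NCX1 and was at 10.20 in Id cKO, 10.44 and 10.25 in the Id controls and 9.92 in WT. Its other probe set gave the same place to WT, with 7.51 in Id cKO, 7.56 and 7.10 in the Id controls and 6.91 in WT. Camk2d encodes the main heart isoform of the calmodulin-dependent kinase that phosphorylates phospholamban and the release channel. It was at 10.00 in Id cKO, 9.99 and 9.97 in the Id controls and 9.73 in WT, so that WT lay below the other 3.

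**Figure D1:**
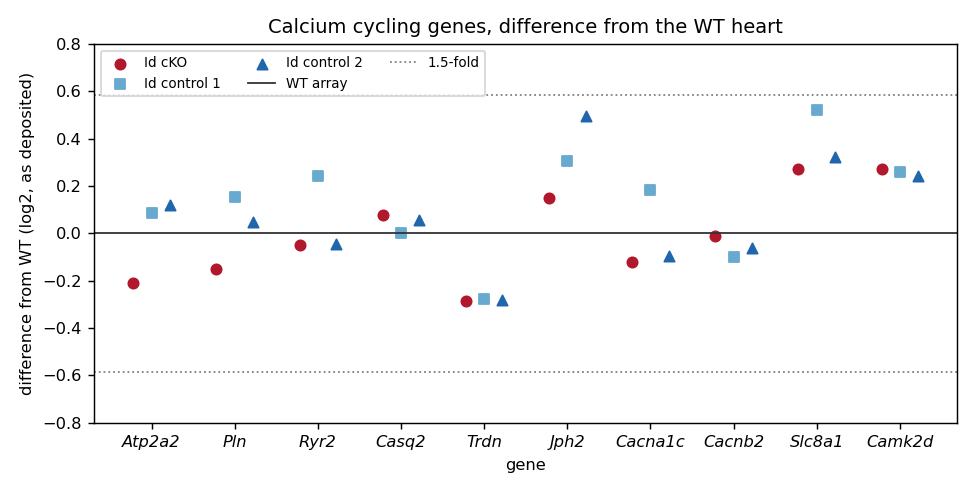
Difference from the WT array (log2, as deposited) for the 10 calcium genes in Id cKO, Id control 1 and Id control 2, 1 array each, with dotted lines at 1.5-fold. All points lie within 1.5-fold of WT, and Atp2a2 and Pln lie below WT in Id cKO and above it in both Id controls.

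Set against Id control, 7 of 9 compared genes were lower in Id cKO than in both Id control arrays, where 41.9% of 11310 genes were. This count includes Trdn, which lay 0.0032 below the nearer Id control on its representative probe set, while 15 of its 19 probe sets were higher in Id cKO than in each Id control. With the mean of a gene's probe sets Trdn was at 0.36 and Slc8a1 at 0.015. Casq2 and Camk2d were higher than both, as were 33.5% of genes, Camk2d by as little as 0.015. No calcium gene passed an adjusted p of 0.05 in limma and 0 had an unadjusted p under 0.05, while 2 genes of all compared passed (0.0177%) and 1523 had an unadjusted p under 0.05 (13.5%). None was 1.5-fold from both Id control arrays (5% of genes). The median over the 10 genes was -0.15, against -0.03 over all genes compared, and between -0.20 and -0.02 with either Id control array left out. The lone Id cKO array was assumed to vary like the Id control pair, the only arrays that give a residual spread.

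Id control lay above WT across much of the array, in 60.1% of genes and with a median of 0.05, against 0.10 for the 10 genes. On both arrays 6 of 9 were higher and 1, Trdn, was lower, where 45.5% and 28.5% of 11407 genes did so. The furthest were Slc8a1 (0.42 ± 0.16, limma SE) and Jph2 (0.40 ± 0.16), both with adjusted p = 0.629, then Trdn (-0.28 ± 0.14, adjusted p = 0.63) and Camk2d (0.25 ± 0.14, adjusted p = 0.65). None passed limma, in which 0 of all genes passed and 828 had an unadjusted p under 0.05 (7.26%), and none was 1.5-fold from WT on both arrays (1.37% of genes). On the representative probe sets the 2 Id control arrays were at most 0.29 apart for any of the 10 genes. Ryr2 (-0.29, Id control 2 minus Id control 1) and Cacna1c (-0.28) were furthest. Some other probe sets lay further apart, such as another of Trdn (10.30 and 9.37, Id control 1 first). The other Slc8a1 probe set had 7.56 and 7.10 in the same order, whereas the other Jph2 probe set had 9.90 and 9.90. Among the 10 atrial markers, 7 of the 9 compared were 2-fold higher in Id control 2 than in Id control 1 (1.04% of genes), and 0 of the calcium genes were.

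Some other genes of calcium handling differed more than the 10. In the list of reticulum genes, 12 were compared between Id cKO and WT and 1 was 2-fold apart (3.17% of all genes). This was Hrc, a histidine-rich protein that binds calcium in the reticulum, at 10.59 in Id cKO, 11.42 and 11.13 in the Id controls and 11.64 in WT. Id cKO was the lowest of these hearts, 1.05 below WT. Next in that list were Akap6 (0.38), Fkbp1a (0.26) and Jph1 (-0.25). Of 14 channel, pump and exchanger genes of the cell membrane, Rrad alone was 2-fold apart (1.39), again beside 3.17% of all genes. It encodes a small GTPase that restrains L-type channels, and was at 10.71 in Id cKO, 10.06 and 10.78 in the Id controls and 9.32 in WT, so that it was high in the Id controls too.

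Among 15 signalling genes Rcan1 alone was 2-fold apart, beside the same 3.17%, at 11.10 in Id cKO, 8.96 and 9.67 in the Id controls and 9.24 in WT. Rcan1 encodes an inhibitor of the calcium-dependent phosphatase calcineurin and is itself switched on by it. Prkar1a, a regulatory subunit of protein kinase A, was 0.84 above WT. Mitochondrial calcium genes were lower than WT in 7 of 8 cases, by at most 0.36 (Slc8b1), where 49.2% of all genes were lower by any amount. Against Id control, 0 members of these 4 lists passed limma, with Rcan1 at 1.78 ± 0.33 (SE, adjusted p = 0.232) and Hrc at -0.69 ± 0.18 (adjusted p = 0.294). Of 13 transcription factors known to act on heart muscle genes, 0 were 1.5-fold from WT (10.3% of all genes), and Tbx5 (-0.54) and Mef2c (0.51) lay furthest.

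The treated heart of the incubated pair had more triadin transcript than the untreated one. Trdn was at 8.60 with IGFBP3 and 7.91 without, a difference of 0.70 (1.62-fold). It was the 1 calcium gene past 1.5-fold, where 7.65% of 7474 compared genes were 1.5-fold higher (14.4% in either direction), and 3.87% of genes lay further up. None of the calcium genes was 2-fold apart on its representative probe set (1.3% of genes). All 19 Trdn probe sets were higher with IGFBP3, by 0.14 to 2.46 with a median of 0.93, and 9 of them at least 2-fold. Of 21789 probe sets with 1 symbol, 44.6% were higher. Many of the larger differences belong to probe sets with low levels. At a level of 6 or more on either array of the pair 10 probe sets remained, all higher with IGFBP3, with a median of 0.78. Probe sets of 1 gene share the same RNA and are not replicates. Among the 24 genes with at least 10 probe sets 7 were higher throughout, and Trdn had the largest median of these 24.

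**Figure D2:**
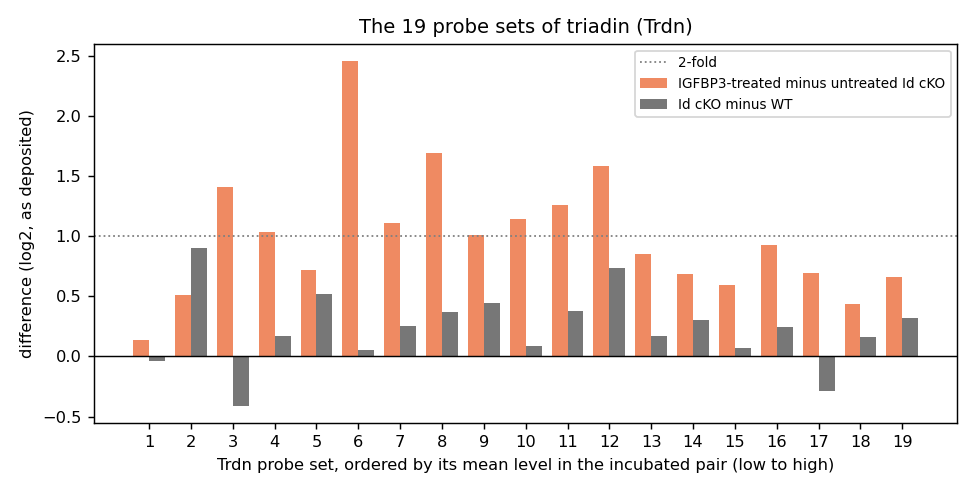
Difference in log2 level for each of the 19 Trdn probe sets, in orange IGFBP3-treated minus untreated Id cKO and in grey Id cKO minus WT, ordered by the mean level in the incubated pair. All 19 orange bars lie above 0 and 9 reach 2-fold, and no grey bar does.

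The partners of triadin in the release unit lay on the same side. Casq2 was at 10.52 with IGFBP3 and 9.97 without (a difference of 0.55), and Ryr2 at 11.06 and 10.64 (0.42). Slc8a1 was at 8.36 with IGFBP3 and 7.96 without (0.39), and its other probe set at 5.56 and 4.97. The pump and the kinase hardly differed, with Atp2a2 at 12.84 with IGFBP3 and 12.83 without, and Camk2d at 7.96 and 7.95. Pln (0.19) and Cacna1c (0.14) were slightly higher and Cacnb2 (-0.26) lower, at 4.26 with IGFBP3 and 4.51 without. Jph2 ran the other way on 1 probe set, with 8.19 with IGFBP3 and 8.65 without, but its other probe set was at 8.55 and 8.49. In all, 8 of 9 compared genes were higher with IGFBP3, where 54.3% of all genes were. Atp2a2 and Camk2d count here by 0.01 and 0.0015, and were at -0.11 and -0.097 with cyclic loess, Camk2d also at -0.041 with quantile normalization. With 1 array in each group there is no replicate check.

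Around these genes, the other calcium lists gave a mixed picture in the incubated pair. Fxyd1 (phospholemman, a regulator of the sodium pump and the exchanger) was at 9.12 with IGFBP3 and 10.01 without. S100a1, a calcium sensor that binds the pump and the release channel, was at 9.24 with IGFBP3 and 9.90 without. Both were thus lower in the treated heart, by 0.88 and 0.66 on the log2 scale. Transcription factors of heart muscle were lower in 10 of 11 cases (45.1% of all genes). Mef2d (-1.03) was 2-fold lower on its highest probe set and -0.46 over the mean of its probe sets, followed by Srf (-0.86), Gata4 (-0.73) and Nkx2-5 (-0.52). Heart muscle markers had a median difference of 0.04 over 15 genes, and macrophage markers one of -0.26 over 9. Red cell and platelet markers were higher with IGFBP3 in 4 of 4 cases (median 0.57), smooth muscle and pericyte markers in 6 of 9 (0.31) and endothelial markers in 9 of 11 (0.20). Their part in the values of the calcium genes was not tested.

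After quantile normalization all 6 hearts could be set side by side. All 3 Id cKO hearts carry the same genotype name, yet several calcium genes were lower in the incubated pair than in the other one. Pln was not, with a difference of 0.21 for the treated and 0 for the untreated heart, and Cacna1c hardly differed (-0.0079 and -0.054). Trdn was at 9.98 in Id cKO, 9.41 in the treated and 8.74 in the untreated heart, against 9.97 and 9.94 in the Id controls and 10.31 in WT. Slc8a1 was at 9.79 in Id cKO, 9.15 treated and 8.80 untreated, against 10.02 and 9.78 in the Id controls and 9.55 in WT. In both genes the incubated pair lay below the 4 other hearts, and the Id cKO heart lay within the range of the Id controls and WT. Camk2d was low in the incubated pair too and highest in Id cKO, with 9.59 in Id cKO, 8.75 treated and 8.79 untreated, against 9.55 and 9.53 in the Id controls and 9.36 in WT. The untreated heart minus the Id cKO heart gave -1.24 for Trdn, -0.99 for Slc8a1, -0.80 for Camk2d and -0.69 for Casq2. In that comparison 13.9% of 10239 genes were 1.5-fold lower and 3.44% 2-fold lower. Date code, handling of the hearts and treatment cannot be told apart between the sets. Nor can sex, by Xist and Eif2s3y, between the Id cKO heart and the incubated pair.

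**Figure D3:**
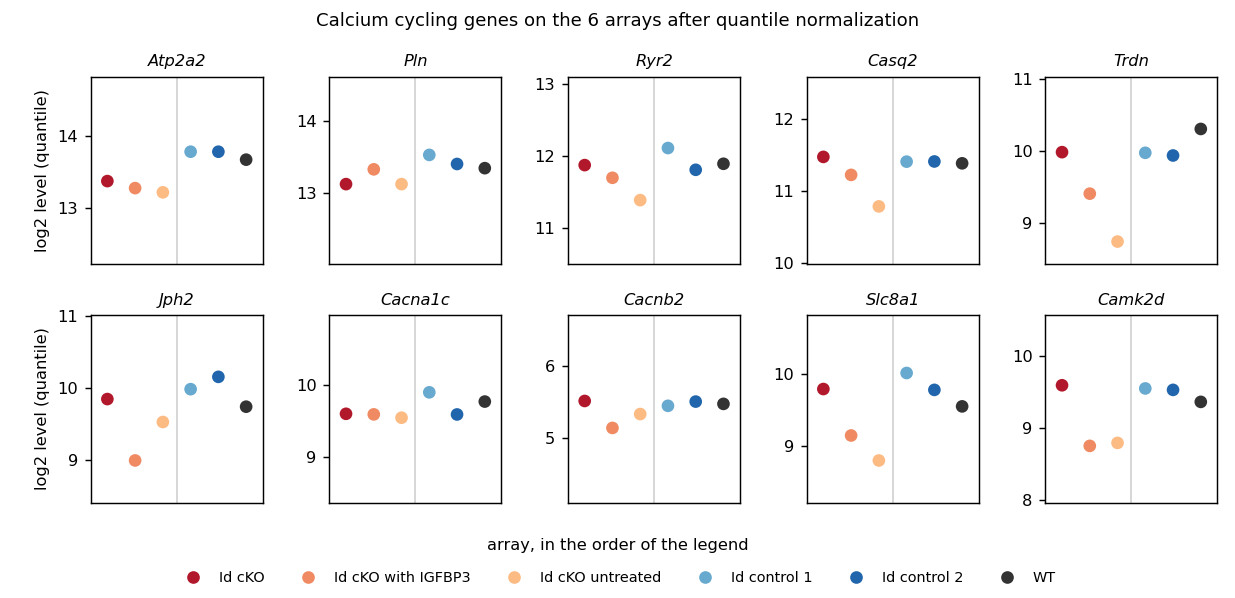
Log2 level after quantile normalization of each calcium gene on the 6 arrays, from left to right Id cKO, IGFBP3-treated Id cKO, untreated Id cKO, Id control 1, Id control 2 and WT, with the same height of scale in every panel. On this scale Atp2a2 lies lower on all 3 Id cKO arrays, whereas Trdn, Slc8a1 and Camk2d are low on the incubated pair.

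Atp2a2 and Pln did not overlap between the 3 Id cKO hearts and the 3 others on this scale. The level of Atp2a2 was 13.38 in Id cKO, 13.28 treated and 13.22 untreated, against 13.78 and 13.78 in the Id controls and 13.67 in WT. All 3 Id cKO hearts lay below all 3 other hearts. Pln was at 13.12 in Id cKO, 13.33 treated and 13.12 untreated, against 13.53 and 13.40 in the Id controls and 13.34 in WT, with almost no gap between treated and WT. Among all 10099 genes compared, 17.8% were lower without overlap. The difference between the 3 Id cKO hearts and the 3 others was -0.46 ± 0.14 (limma SE) for Atp2a2, with a 95% interval from -0.77 to -0.14, an unadjusted p of 0.00994 and an adjusted p of 0.0935 in limma. It was 0.08 when the arrays were centred on their medians and -0.04 after cyclic loess, so its size and sign depend on how the sets are scaled. Within the shared date code, where Id cKO meets Id control 2 and WT, it was -0.35.

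All 10 calcium genes had a lower mean in the 3 Id cKO hearts (53.5% of genes were lower by any amount), with a median of -0.36 against -0.04 over all genes compared, although with median centring Atp2a2 and Pln, and with cyclic loess Pln, had a higher one. With date code as a block Ryr2 (0.023), Casq2 (0.076), Slc8a1 (0.13) and Camk2d (0.15) were higher, and without the incubated pair Casq2, Slc8a1 and Camk2d were. The median was -0.09 with date code as a block and -0.08 without the incubated pair. No calcium gene passed limma, in which 441 genes passed (4.37%). Atp2a2 and Trdn had an unadjusted p under 0.05, as did 2721 of all genes (26.9%). Trdn was at -0.69 ± 0.29 (adjusted p = 0.169) and was 1.5-fold lower, as were 8.43% of genes, while 0 of the 10 were 2-fold apart (4.9% of genes). Slc8a1 (-0.54 ± 0.26, adjusted p = 0.216), Jph2 (-0.50 ± 0.23, adjusted p = 0.20) and Camk2d (-0.43 ± 0.23, adjusted p = 0.259) followed. Without the Id cKO array, which leaves the incubated pair against the other hearts, Atp2a2, Slc8a1, Trdn, Jph2 and Camk2d passed, with adjusted p from 0.00804 to 0.0307. In that setting genotype, date code and handling cannot be told apart. The number of all genes that passed also varied widely with the array left out, as the last section gives. The share of all genes that passed in this setting is not given here, so these calls do not set the calcium genes apart.

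Cell type markers differed between the same groups. The mean level of heart muscle markers after quantile normalization was 12.7 in Id cKO, 12.3 treated and 12.2 untreated, against 12.8, 12.7 and 12.7 in Id control 1, Id control 2 and WT, and 14 of 15 were lower in the 3 Id cKO hearts, with a median of -0.17. Of these Ckm, the muscle creatine kinase, passed limma (-0.78 ± 0.17, adjusted p = 0.0461). All 11 endothelial markers were higher (median 0.67), and 3 of them passed. Over all genes 53.5% were lower, 46.5% were higher and 4.37% passed. Fibroblast markers were higher in 9 of 10 cases (0.53), but 0 of them without overlap. Their mean was 8.89 in Id cKO, 9.88 treated and 9.98 untreated, against 8.93, 9.78 and 8.56 in Id control 1, Id control 2 and WT. The Id cKO heart thus lay within the range of the Id controls and WT. The part of these shifts in the values of the calcium genes was not tested.

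Of the other calcium genes, Hrc and Rcan1 passed limma between the 3 Id cKO hearts and the 3 others. Hrc fell by 1.58 ± 0.32 (limma SE, adjusted p = 0.0347), with 10.18 in Id cKO, 9.03 treated and 9.05 untreated, against 11.04 and 10.68 in the Id controls and 11.28 in WT after quantile normalization. Rcan1 rose by 1.38 ± 0.25 (adjusted p = 0.0272), with 10.73, 9.99 and 10.07 in the Id cKO hearts in the same order, against 8.54 and 9.22 in the Id controls and 8.88 in WT. Neither gene overlapped between the groups. Both kept these directions after median centring and cyclic loess and with date code as a block. With the block the adjusted p was 0.485 for Hrc (-0.80) and 0.0297 for Rcan1 (1.68), and without both arrays of the incubated pair 0.231 for Hrc and 0.0849 for Rcan1. Both calls rest on single arrays. Hrc no longer passed without the treated (0.157), untreated (0.121), Id control 1 (0.126), Id control 2 (0.0571) or WT array (0.151). Rcan1 no longer passed without the treated (0.0955), untreated (0.0751), Id control 1 (0.109) or WT array (0.125).

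Pde3a, which breaks down cyclic AMP beside the pump, was at -1.22 ± 0.29 (adjusted p = 0.0538) and the T-type channel gene Cacna1g at -1.14 ± 0.28 (adjusted p = 0.0576). In all 1 of 12 reticulum genes and 1 of 15 signalling genes passed, and 0 of 14 membrane and 0 of 8 mitochondrial genes, where 4.37% of all genes did. The same proteins exist in forms used by other tissues, and 8 of 17 such paralogues were compared. The skeletal muscle form Casq1 lay furthest, at -1.52 ± 0.50 (adjusted p = 0.106). It was high in Id control 2 (8.83 as deposited), against 6.93 in Id cKO, 7.32 in Id control 1 and 6.87 in WT.

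**Figure D4:**
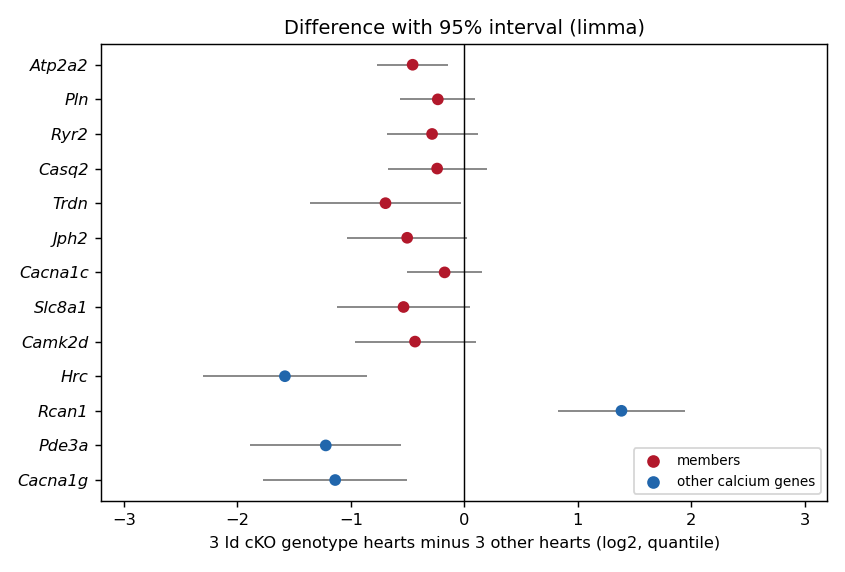
Difference in log2 level after quantile normalization, 3 Id cKO genotype hearts minus the 3 other hearts, for the 9 compared calcium genes (red) and 4 other calcium genes (blue), with 95% intervals from limma. All red points lie below 0 on this scale, the intervals of Atp2a2 and Trdn among them exclude 0 before adjustment, and Hrc and Rcan1 lie furthest out.

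The joint profile of the 10 genes was shared by much of the array. The mean of their centred levels after quantile normalization was 0.10 in Id cKO, -0.26 treated and -0.39 untreated, against 0.25, 0.17 and 0.13 in Id control 1, Id control 2 and WT. Slc8a1 followed this mean most closely (Pearson r = 0.97 over 6 arrays) and Pln least (0.60). Among 10090 other genes 1271 had an r over 0.9 with it, and the nearest 5 were Fbxw7, Tln2, Ndufaf5, Dcaf8 and Lonp2, each with r = 0.998 or 0.997. The 6 arrays share 2 scales and 3 date codes, and these correlations are a description.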

How the data were processed

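Per the submitters' processing notes, the authors made the deposited log2 values with Affymetrix Expression Console and RMA, 1 per probe set and array, from 300 ng of RNA. No tool version is stated. The number of arrays limits the precision. A gene was represented by the probe set annotated to its symbol alone with the highest mean. Of the probe sets 21789 carried 1 symbol. A gene entered a comparison when its level reached 6 in the group with the higher mean. Within a set of arrays the deposited values were used, and across sets quantile normalization over all probe sets. The limma models (3.58.1, R 4.3.3) used 6 arrays, split into 5 groups for comparisons with Id control (1 residual degree of freedom) and into 2 groups for the 3 Id cKO hearts against the others (4). Adjustment was by Benjamini-Hochberg over all genes compared, with a limit of 0.05. For 1 array against 1, genes were counted by size (1.5-fold and 2-fold).

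Named were the 10 genes, Id1 and Id3, the 5 genes with the most similar profile, and from each list described up to 4 genes with the largest difference and any 2-fold apart. Xist and Eif2s3y were named after their values were seen. The genes and lists were chosen with earlier results of these data known. The lists held 17 reticulum, 19 membrane, 20 signalling, 9 mitochondrial, 18 paralogue and 13 transcription factor genes, beside 10 marker lists. On simulated data of 9781 genes, the fit of 3 against 3 hearts recovered 100% of 90 genes changed 2-fold and called 5 unchanged ones. A simulation checks the fit alone and cannot tell genotype from date code, scale, handling or sex in the real arrays. On the real arrays, past 2-fold, Hrc (-1.58) and Rcan1 (1.38) passed limma. Pde3a (-1.22), Cacna1g (-1.14) and Casq1 (-1.52) did not. The SD of the 3 Id cKO hearts after quantile normalization ran from 0.029 (Cacna1c) to 0.62 (Trdn) among the 10 genes. Recovery of 2-fold changes at the spread of each real gene was not tested. Alternatives were median centring, cyclic loess, other floors, the mean of a gene's probe sets, deposited values without rescaling, date code as a block, and arrays left out.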

Additional observations from a re-analysis of the deposited data

How the results depend on the processing

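Of 449 values of the 10 genes under alternatives, 414 kept their direction and their side of the threshold or, where no test applied, moved by less than the spread between replicates. No paired analysis was possible because the labels give no replicate numbers. With 1 Id control array left out, limma could not be fitted in 5 groups and values alone were computed. The incubated pair was left out as a choice made after seeing the data.

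For Id cKO minus WT the median of the 10 genes was 0.032 with median centring and 0.034 with the mean of a gene's probe sets, against -0.03, and 223 genes were 2-fold apart at a floor of 8, against 364. For Id cKO minus Id control the median was -0.050 with the mean of probe sets and -0.20 to -0.015 with an Id control array left out. There 73 genes were 2-fold apart at a floor of 8 and 286 to 300 with an array left out, against 127. Camk2d was -0.0086 with median centring, Slc8a1 0.015 with the mean of probe sets, and Trdn 0.043 with cyclic loess, 0.36 with the mean of probe sets and 0.028 with quantile normalization.

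For Id control minus WT the median was 0.19 with median centring and 0.051 to 0.17 with an array left out. The adjusted p passed for 1 gene with median centring and 1 with no floor, against 0. At a floor of 8 there were 12 genes 2-fold apart and with an array left out 57 to 203, against 23. Casq2 was -0.017 and Cacna1c -0.025 with cyclic loess, and Cacna1c was -0.025 with quantile normalization. Between the Id control arrays 76 genes were 2-fold apart at a floor of 8, against 136.

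For IGFBP3-treated minus untreated the median was 0.23 with median centring and 0.053 with cyclic loess, against 0.17, and 2 of the 10 genes were past 1.5-fold with median centring. The share of all genes past 1.5-fold was not computed with median centring. Genes 2-fold apart numbered 146 with cyclic loess, 178 with no floor and 39 at a floor of 8, against 97.

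For the 3 Id cKO hearts minus the others the median was -0.14 with median centring, -0.19 with cyclic loess, -0.28 with the mean of probe sets, -1.002 without rescaling, -0.091 with date code as a block, -0.076 without the pair and -0.45 to -0.25 with 1 array left out. Of the 10 genes, 0 were past 1.5-fold with the mean of probe sets, with the block or without the pair, 9 without rescaling and 0 to 4 with 1 array left out. The share of all genes past 1.5-fold was not computed in these settings, so these counts do not set the 10 genes apart. Genes 2-fold apart numbered 260 at a floor of 8, 3910 without rescaling, 250 with the block, 232 without the pair and 352 to 951 with 1 array left out, against 495. Genes past the adjusted p numbered 1374 without rescaling, 59 with the block, 31 without the pair and 24 to 3302 with 1 array left out, against 441. Of the 10 genes 3 passed without rescaling and 0 to 5 with 1 array left out. Atp2a2 was 0.080 and Pln 0.25 with median centring, and Pln 0.14 with cyclic loess. With the block Ryr2 was 0.023, Casq2 0.076, Slc8a1 0.13 and Camk2d 0.15, and without the pair Casq2 was 0.073, Slc8a1 0.0099 and Camk2d 0.11. Values without rescaling include the lower scale of the incubated pair, whose array medians lay 1.29 below those of the other arrays on average. The cause of the other shifts was not tested, apart from settings that by construction use fewer genes or arrays.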
